A study of Mus musculus with 30 samples.

Results

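The genes described here encode the secreted and membrane-bound enzymes that cut extracellular matrix, and their inhibitors. They are the matrix metalloproteinases (Mmp genes), the ADAMTS proteases, the ADAMTS-like proteins and the tissue inhibitors of metalloproteinases (Timp genes). They were chosen by gene symbol alone, as every mouse symbol made of Mmp, Timp 1 to 4, Adamts or Adamtsl and a number. The rule found 51 genes among the 78334 gene identifiers of the table: 23 Mmp, 19 Adamts, 5 Adamtsl and 4 Timp genes. The rule uses no measured value.

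Matrix metalloproteinases are made as inactive precursors, and a zinc ion in the active site does the cutting once the propeptide is removed. Collagenases such as Mmp13 open fibrillar collagen, gelatinases such as Mmp2 digest the denatured chains, and stromelysins such as Mmp3 cut proteoglycans and activate other precursors. Timp proteins bind the active site and block it. Timp3 is held in the matrix and also inhibits several ADAMTS enzymes, and Timp2 takes part in the activation of Mmp2 by Mmp14 at the cell surface. ADAMTS proteases cut versican and aggrecan (Adamts1, Adamts4, Adamts5), trim procollagens (Adamts2, Adamts14) or act on fibrillin microfibrils and other matrix proteins (Adamts6, Adamts10). ADAMTS-like proteins resemble them but lack the catalytic domain. In the vessel wall these enzymes are known for the breakdown of the elastic and collagenous matrix when smooth muscle cells leave their contractile state.

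RNA was sequenced from 30 libraries of cells labelled as mouse aortic smooth muscle cells, starved of serum for 48 h and transfected for at least 24 h; the growth protocol names both mouse and rat cells. The series examines CASC15, a long noncoding RNA, which was knocked down with GapmeRs (antisense oligonucleotides that recruit RNase H) or overexpressed from a plasmid. Run 2 held 4 untreated groups: control GapmeR (2 libraries, batches P17 and P18), knockdown labelled total CASC15 (2, the same batches), control plasmid (3, P17 to P19) and overexpression of total CASC15 (3). Run 3 held 5 groups of 4 libraries, each with 1 from each of batches P16 to P19: control knockdown left untreated, given angiotensin II at 10 ng/ml, or given PDGF-BB at 10 to 30 ng/ml, and knockdown of long CASC15 left untreated or given angiotensin II. Treatments lasted 24 h. The labels name no strain, age or animal, do not define the total and long forms, and do not say that libraries came from separate cultures, so p-values measure the spread between these libraries, which may be technical.

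Total counts ranged from 18007199 to 21881959 per library in run 2 and from 15771490 to 30362047 in run 3. The target was read from 2610307P16Rik, a long noncoding RNA gene beside Sox4 that no table used here pairs with CASC15; the assignment was made with its rise under overexpression in view. It stood at 4.03 to 8.69 CPM (counts scaled to library size) with control plasmid and 604 to 916 with overexpression, and at 4.94 to 6.01 in untreated controls and 2.15 to 3.48 with long knockdown. In control cells given PDGF-BB it stood at 2.95 to 4.82, also below every untreated control. It was not lower in the libraries labelled total knockdown (8.29 to 9.73 CPM) than in their controls (6.37 to 7.66). Of 8 smooth muscle markers, Cnn1 stayed under 0.5 CPM in every library of all 9 groups, and Myh11 did so in the untreated, angiotensin II and PDGF-BB controls of run 3 and with overexpression in run 2. Des did so in both control groups of run 2, and Lmod1 in its control GapmeR and labelled total knockdown groups. Of the 6 fibroblast markers, Cd34 stayed under 0.5 CPM in every library of all 9 groups. Dpt did so in the untreated and PDGF-BB controls and untreated long knockdown of run 3, and in the labelled total knockdown. Summed level per exon length was higher for the 6 fibroblast markers (913 to 1055 in length-scaled CPM, which is CPM divided by exon length and rescaled to the CPM total, in untreated controls of run 3) than for the 8 smooth muscle markers (364 to 414). Of 8 leukocyte markers Ptprc, Adgre1, Itgam and Ly6g stayed under 0.5 CPM in every library, of 6 endothelial markers Cdh5 and Tie1, and of 4 epithelial markers Epcam. The other markers of these lists reached 0.5 CPM in at least 1 library, and over all libraries the lists summed to 19.3 to 72.7 (leukocyte), 0.189 to 3.66 (endothelial) and 28.9 to 150 (epithelial) in length-scaled CPM.

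A run of 10 Mmp genes lies side by side on chromosome 9, in the order Mmp13, Mmp12, Mmp1b, Mmp3, Mmp1a, Mmp10, Mmp8, Mmp27, Mmp20 and Mmp7 (RefSeq, GRCm38.p6, chr9:7272514-7699585). Mmp3 and Mmp13, the 2 members with the largest called rises under PDGF-BB, belong to it. RefSeq start-site windows (GRCm38.p6, 250 bases before to 50 after the start) were found for 36 of the 51 members. The AP-1 motif TGANTCA, which reads the same on both strands, occurred in 7.81% of all 32851 windows and in a window of 8 members, all of them in this cluster: Mmp13, Mmp12, Mmp1b, Mmp3, Mmp1a, Mmp10, Mmp20 and Mmp7. The NF-kB motif GGANTTTCC, searched on both strands, occurred in 1.25% of windows and in that of 1 member, Mmp1b. The 250 bases before the start of Mmp3 (chr9:7445572-7445821, + strand) and Mmp13 (chr9:7272264-7272513, + strand) are printed 5′ to 3′ with the AP-1 match in capitals, which starts 46 and 35 bases before the start site. Those of Timp1 (chrX:20869916-20870165, + strand), which also rose with PDGF-BB, and Mmp11 (chr10:75932503-75932752, - strand), which fell, hold no match and follow for contrast. These genes were picked by their response to PDGF-BB here, and a part of the motif in it was not tested. Mmp12 and Mmp7 each have another start-site window without a match.
Mmp3: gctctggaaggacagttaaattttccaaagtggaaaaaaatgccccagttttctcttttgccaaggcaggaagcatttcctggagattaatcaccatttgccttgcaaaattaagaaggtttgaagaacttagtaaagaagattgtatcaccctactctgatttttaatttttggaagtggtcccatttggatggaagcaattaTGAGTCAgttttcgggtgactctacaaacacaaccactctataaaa
Mmp13: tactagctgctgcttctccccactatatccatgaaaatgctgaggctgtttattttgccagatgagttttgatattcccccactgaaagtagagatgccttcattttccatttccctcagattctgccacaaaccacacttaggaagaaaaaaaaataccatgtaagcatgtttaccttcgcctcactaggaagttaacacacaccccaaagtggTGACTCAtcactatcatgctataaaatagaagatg
Timp1: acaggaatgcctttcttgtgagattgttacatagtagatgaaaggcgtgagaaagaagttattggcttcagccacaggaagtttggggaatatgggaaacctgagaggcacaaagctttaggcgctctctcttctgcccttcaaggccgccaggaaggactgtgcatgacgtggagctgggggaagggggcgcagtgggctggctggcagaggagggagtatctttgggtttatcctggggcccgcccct
Mmp11: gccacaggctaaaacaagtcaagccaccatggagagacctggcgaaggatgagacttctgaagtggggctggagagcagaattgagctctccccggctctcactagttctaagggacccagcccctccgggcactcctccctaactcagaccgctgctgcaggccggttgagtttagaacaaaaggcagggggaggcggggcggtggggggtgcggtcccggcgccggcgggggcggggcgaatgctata

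The other 6 members with a match are shown as 31 bases around it, to let the matches be set side by side; their letters are a description and not a measured binding site. Their windows are chr9:7464056-7464086 (Mmp1a), chr9:7388101-7388131 (Mmp1b, - strand), chr9:7502267-7502297 (Mmp10), chr9:7347318-7347348 (Mmp12), chr9:7628124-7628154 (Mmp20) and chr9:7692015-7692045 (Mmp7), on the + strand except for Mmp1b. In these cells Mmp20 and Mmp7 were at 0 in every library of both runs, and Mmp1a, Mmp1b, Mmp10 and Mmp12 did not reach the count filter.
Mmp1a: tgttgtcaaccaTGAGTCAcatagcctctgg
Mmp1b: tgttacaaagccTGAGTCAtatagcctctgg
Mmp10: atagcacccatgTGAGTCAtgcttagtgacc
Mmp12: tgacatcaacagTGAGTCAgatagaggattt
Mmp20: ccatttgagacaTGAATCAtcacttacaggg
Mmp7: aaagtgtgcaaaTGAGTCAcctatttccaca

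Of the 51 members, 32 passed the filter on low counts in run 2 (13 Mmp, 11 Adamts, 4 Adamtsl, 4 Timp) and 30 in run 3 (12, 11, 3 and 4). A member that did not pass had at most 14 counts in any library of the run. In both runs these were Adamts3, Adamts8, Adamts13, Adamts16 to Adamts20, Adamtsl1, Mmp1a, Mmp1b, Mmp7, Mmp8, Mmp9, Mmp10, Mmp12, Mmp20, Mmp21 and Mmp25, joined in run 3 by Adamtsl2 and Mmp17. Mmp9, the second gelatinase, was listed at 0 to 3 counts in each run 3 library and at 1 to 10 in each run 2 library. Members at 0 in every library were Adamts18, Adamts19, Mmp1a, Mmp7 and Mmp20 in run 2, and Adamts19, Adamts20, Mmp7 and Mmp20 in run 3. A count of 0 allows up to 3 counts, which is 0.137 to 0.167 CPM in run 2 and 0.0988 to 0.190 CPM in run 3, for counting error only.

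Inhibitors made up most of the family's RNA. In length-scaled CPM, Timp2 stood at 1853 ± 70.9 (SD, n = 4) in the untreated controls of run 3, Timp3 at 816 ± 33.9, Mmp2 at 352 ± 10.0, Mmp14 (the membrane-anchored activator of Mmp2) at 201 ± 23.9 and Mmp11 (stromelysin 3) at 136 ± 23.2. These 5 did not overlap between libraries. Adamts1 followed at 105 ± 9.92 and Adamts10 at 94.9 ± 27.6, and their ranges overlapped with each other and with that of Mmp11. Mmp3 stood at 46.2 ± 3.84, Timp1 at 41.4 ± 3.32 and Mmp13 at 32.2 ± 8.94, with overlapping ranges. The 4 Timp genes held 68.1 ± 2.27% of the summed level of all members, the gelatinases 8.84 ± 0.249%, the membrane-type Mmp genes 5.62 ± 0.623%, the stromelysins and matrilysin 4.59 ± 0.508% and the collagenases 0.809 ± 0.225%. Timp4 was the exception among inhibitors, with 0, 0, 0 and 4 counts in those libraries.

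**Figure D1:**
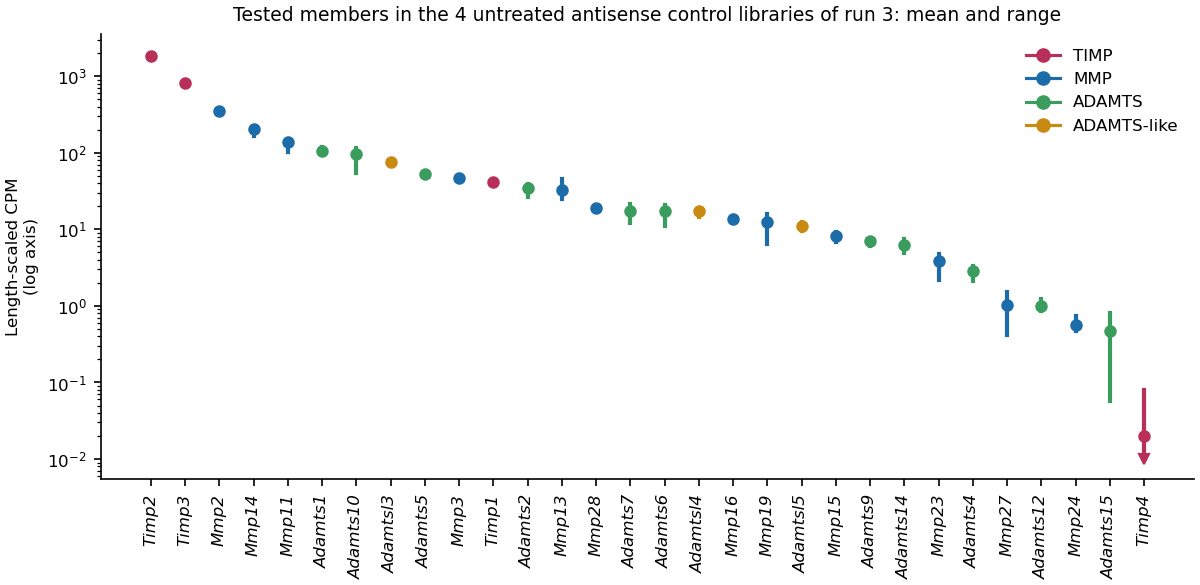
Level in length-scaled CPM (log axis) of the 30 members tested in run 3, in the 4 untreated control libraries. Points are means, lines span the lowest to the highest library, and the downward mark shows a range that reaches 0 (Timp4). Timp2 at 1853 and Timp3 at 816 stand above every protease.

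Batch P19 stood apart from P16 to P18 for several members in all 5 groups of run 3. Taken as the log2 difference from the mean of the other 3 batches (with 0.5 CPM added), Mmp13 was higher in P19 by a median of 1.10 over the 5 groups, while Adamts15 (median -1.54), Adamts10 (-0.93), Mmp19 (-0.81) and Adamts6 (-0.79) were lower. P19 lay on the same side in all 5 groups for 13 of 30 members (43.3%), against 42.3% of all genes tested, and by at least 0.5 for 3 members (10%), against 2.4%. The proliferation gene Mki67 differed in P19 too: it stood at 48.8 CPM in the P19 untreated control against 14.5 to 24.1 in the other 3, and at 31.5 against 1.68 to 3.56 with long knockdown, but P19 was the lowest library with PDGF-BB, at 353 against 376 to 391. Its part in the members' values was not tested. Counts of called members with batch as a term and without P19 are given beside the comparisons.

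Untreated cells with the control oligonucleotide were sequenced in both runs and differed between them. Mmp13 stood at 2.36 ± 1.27 CPM (n = 2) in run 2 and 23.8 ± 7.14 (n = 4) in run 3, Mmp3 at 7.22 ± 0.262 and 23.0 ± 2.24, and Timp3 at 953 ± 155 and 1836 ± 102. Mmp15 (44.5 ± 7.75 and 12.2 ± 1.28) and Adamtsl5 (36.5 ± 5.87 and 14.6 ± 1.62) were higher in run 2. Of the 25 members with a mean of at least 5 CPM in either run, libraries of the runs did not overlap for 15, these 5 among them, against 67.4% of all 11004 genes at that level. The 5 were picked once their values were seen. Sequencing run and any difference between the cells cannot be told apart here, so each run was compared with its own controls only.

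PDGF-BB, a growth factor that drives smooth muscle cells to divide, was given to control cells, and 13 of 30 members changed (43.3%; 4 higher, 9 lower). This share is near the background, since 43.6% of the 15103 genes tested were called (23.6% higher, 20.0% lower). Mmp3 rose most, with Mmp13 and Timp1 next, and Mmp11, Adamts6 and Mmp15 fell most. In a bulk sample, fewer cells of a kind and less RNA per cell cannot be told apart. The median log2 fold change was -0.11 over the members and -0.02 over all genes.

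Mmp3 stood at 23.0, 20.4, 22.7 and 25.9 CPM in the untreated P16 to P19 controls and at 180, 195, 197 and 172 with PDGF-BB. All 4 treated libraries lay far above all controls, an 8.07-fold rise (log2 3.01, SE 0.305, adjusted p = 5.66e-07). Mmp13 went from 20.3, 18.3, 22.5 and 34.2 CPM to 43.8, 50.5, 61.0 and 111, highest in P19 under both conditions. The groups did not overlap (2.78-fold, log2 1.48, SE 0.537, adjusted p = 0.0356), and the ratio within batches ran from 1.11 to 1.69 on the log2 scale. Timp1, a soluble inhibitor of secreted Mmp enzymes, went from 10.8, 10.7, 9.67 and 9.45 CPM to 31.5, 25.2, 26.1 and 27.4. It rose 2.71-fold with no overlap (log2 1.44, SE 0.129, adjusted p = 2.85e-08). Adamts1, a versican-cutting protease, went from 138, 145, 171 and 159 CPM to 184, 192, 207 and 157. It was higher in 3 of 4 batches and at a log2 ratio of -0.02 in P19 (fitted log2 0.27, SE 0.104, adjusted p = 0.0397), and its groups overlapped.

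Among the members that fell, Mmp11 went from 105, 115, 116 and 81.3 CPM to 47.3, 49.0, 42.8 and 33.9 with PDGF-BB. That is 2.41-fold lower (log2 -1.27, SE 0.136, adjusted p = 4.48e-07), in every batch. Adamts6 went from 44.1, 42.7, 37.7 and 24.5 CPM to 17, 20.8, 17.5 and 10.4 (2.26-fold lower, adjusted p = 0.0018). P19 was the lowest library in both groups, and the groups did not overlap. Of the 4 membrane-type members tested, 3 fell, against 20.0% of all genes: Mmp15 (12.2 ± 1.28 to 6.0 ± 0.764 CPM, log2 -1.02, adjusted p = 1.48e-06), Mmp16 (32.8 ± 2.23 to 21.6 ± 1.27, log2 -0.60, adjusted p = 7.08e-05) and Mmp14 (330 ± 33.8 to 278 ± 26.5, log2 -0.25, adjusted p = 0.0385, overlapping). Adamts7, which cuts cartilage oligomeric matrix protein, fell from 30.1 ± 5.97 to 16.5 ± 4.42 CPM (log2 -0.86, adjusted p = 0.00094). Adamts2, a procollagen N-proteinase, fell from 88.6 ± 13.2 to 58.2 ± 18.2 (log2 -0.60, adjusted p = 0.0158), with overlap. Timp3 fell from 1836 ± 102 to 1453 ± 49.0 CPM (log2 -0.34, adjusted p = 0.0089), with 21.3% of its exon bases also annotated to Syn3 on the other strand. Mmp2 fell from 327 ± 6.73 to 271 ± 10.6 (log2 -0.27, adjusted p = 0.000585), in 4 of 4 batches.

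**Figure D2:**
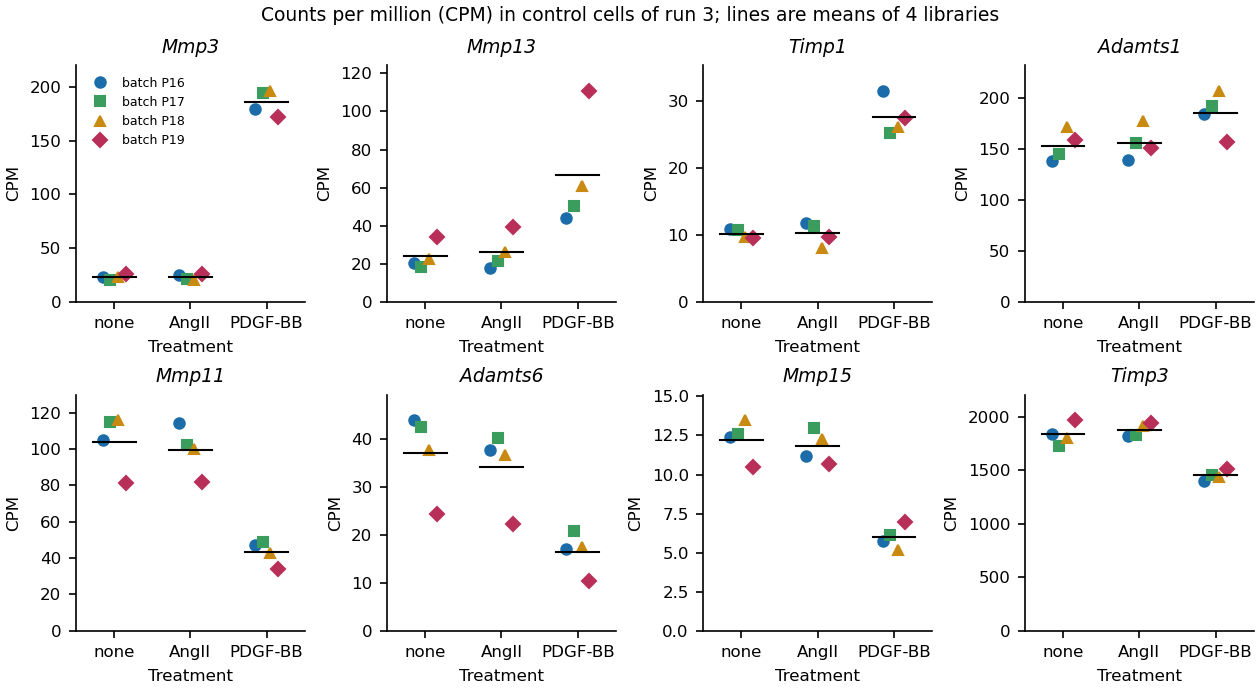
CPM of 8 members in control cells of run 3 without treatment, with angiotensin II (AngII) and with PDGF-BB. Points are libraries marked by batch and lines are means of 4; Mmp3 goes from 23.0 to 186 CPM with PDGF-BB and stays at 23.1 with angiotensin II.

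The makeup of the family's RNA moved with these changes. The stromelysins and matrilysin held 4.59 ± 0.508% of the members' summed level per exon length without treatment and 11 ± 0.871% with PDGF-BB, the collagenases 0.809 ± 0.225% and 2.29 ± 0.995%, and the inhibitors 68.1 ± 2.27% and 62.9 ± 2.10%. These shares were not tested. Timp2 (log2 -0.12, adjusted p = 0.205), Adamts5 (0.04, adjusted p = 0.808) and Adamts4 (0.04, adjusted p = 0.895) did not pass the threshold. Members below the filter were listed mostly in single counts. Mmp10, stromelysin 2, held 4 counts over the untreated controls and 32 with PDGF-BB, a ratio of 9.68 per TMM-scaled library size (95% interval 3.43 to 37.7, exact, counting error only); Mmp12, the metalloelastase, held 1 and 10 (ratio 12.1, interval 1.72 to 525). Both were singled out once their values were seen, and the treated libraries were uneven: Mmp10 held 4, 1, 14 and 13 counts in P16 to P19 and Mmp12 1, 1, 8 and 0. Mmp9 held 3 counts in each group.

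With batch as a term, 18 members passed in place of 13 (6 higher, 12 lower), among 54.5% of all genes, and all 13 were among them. Added were Adamts12 (log2 0.53) and Adamts14 (0.34) as higher and Timp2 (-0.12, adjusted p = 0.0196), Adamts10 (-0.25) and Adamts15 (-0.93) as lower. Without batch P19, 17 members passed among 48.9% of all genes, including all 13 and Timp2 (adjusted p = 0.0482). Without the batch term, Mmp13 lost its call when untreated P16, P17 or P18 or PDGF-BB P18 or P19 was left out (adjusted p = 0.0518 to 0.143) and with no filter on low counts (0.0895). Mmp14 lost it without the same 5 libraries (0.0663 to 0.096), and Adamts1 without untreated P16 or P17 or PDGF-BB P16, P17 or P18 (0.0756 to 0.149), with no filter, with a mean CPM of at least 1 or in a fit of the 2 groups alone (0.0585 to 0.0718). Of related genes taken as lists, set against 23.6% of all genes higher and 20.0% lower, 4 of 5 plasminogen activation genes tested (of 8 listed) rose and none fell, 3 of 9 membrane ADAM genes (of 10) rose and 1 fell, of 11 genes of activation, clearance and other inhibitors (of 15) 4 rose and 1 fell, and of 12 substrates (of 15) 3 rose and 2 fell. The batch term moved the lists together from 14 higher and 4 lower to 14 higher and 9 lower of 37 tested, against 54.5% of all genes called: 4 and 0 in plasminogen activation, 3 and 2 in membrane ADAM genes, 4 and 3 in activation, clearance and other inhibitors, and 3 and 4 in substrates. Vcan, the versican cut by Adamts1 and Adamts5, rose from 81.2 ± 11.6 to 273 ± 37.9 CPM (log2 1.75, adjusted p = 4e-07), and Dcn, decorin, fell from 1592 ± 102 to 664 ± 109 (log2 -1.26, adjusted p = 1.43e-08). Eln, elastin, rose from 0.836 ± 0.259 to 2.38 ± 0.521 (log2 1.53, adjusted p = 0.00487). Marker sums per exon length moved with the treatment. The 6 fibroblast markers, which include Dcn, went from 913 to 1055 down to 334 to 456. The 8 smooth muscle markers went from 364 to 414 down to 230 to 273, and Mki67 stood at 353 to 391 CPM. The sum of the 4 epithelial markers went from 74.5 to 103 up to 116 to 150, with Epcam and Krt14 under 0.5 CPM in every library of both groups. Krt18 stayed under 0.5 CPM in the untreated controls only. The 6 endothelial markers went from 0.610 to 1.56 down to 0.189 to 0.565, while the 8 leukocyte markers overlapped (22.1 to 31.6 and 23.0 to 27.3). Their part in the members' changes was not tested.

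Angiotensin II, a peptide hormone that constricts vessels, was given to control and to knockdown cells, and no member passed the threshold in either. Mmp3 stood at 24.7, 21.3, 20.5 and 25.8 CPM in treated controls, against 23.0, 20.4, 22.7 and 25.9 untreated (log2 0.00, SE 0.298). Timp1 stood at 11.8, 11.3, 8.0 and 9.62 CPM against 10.8, 10.7, 9.67 and 9.45 (log2 0.01, SE 0.131). The libraries overlapped for both genes. No gene of the 15103 was called either: 0% with angiotensin II in control cells, 0% in long knockdown and 0% for the interaction, also with batch as a term. By edgeR 0 of 30 members fell under an unadjusted p of 0.05 in any of these 3 comparisons, and DESeq2 called 0 members (and 1, 0 and 2 of all genes in turn). The share of all genes under that unadjusted cut was not counted. Member log2 fold changes lay between -0.41 and 1.16 in control cells and between -0.66 and 0.30 in knockdown cells, and the interaction between -0.88 and 0.48; Timp4 gave the 1.16 and the -0.88 on at most 5 counts a library in controls. Of the 11 reference members tested (those listed for description in every comparison, called or not; Mmp9, the other one, was below the filter), Adamts4 shifted most in control cells, lower in 4 of 4 batches (3.78 ± 0.655 to 2.84 ± 0.398 CPM, log2 -0.41, SE 0.239, adjusted p = 1).

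Knockdown of long CASC15 in untreated cells changed 10 of 30 members (33.3%), 2 higher and 8 lower, against 25.0% of all genes (12.3% higher, 12.8% lower). Timp4 and Adamtsl5 rose, and Mmp27, Adamts12, Mmp3, Adamts7, Timp1, Adamts5, Mmp14 and Mmp2 fell. Timp4 passed the filter on low counts only through the long knockdown libraries, where it was high, and its call is counted in the 10. The median log2 fold change was -0.22 over the members and 0.02 over all genes. Of the 30, 22 were lower and 8 higher in the fitted value, whether called or not.

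Timp4, an inhibitor known for its expression in heart, was listed at 16, 14, 10 and 4 counts in the P16 to P19 knockdown libraries and at 0, 0, 0 and 4 in the controls. Summed counts of 44 against 4 give a ratio of 13.2 per TMM-scaled library size (95% interval 4.80 to 50.5, exact, counting error only, adjusted p = 0.0097). Timp4 was tested only because knockdown libraries, where it was high, carried it past the filter on low counts, so this p-value is no independent support. All 4 control counts came from P19, where knockdown and control stood at 0.212 and 0.135 CPM; without P19 the controls held 0 counts. Adamtsl5, which binds fibrillin microfibrils, went from 16.1, 12.3, 15.2 and 14.6 CPM to 23.3, 27.7, 25.0 and 38.2. It rose 1.96-fold with no overlap (log2 0.97, SE 0.150, adjusted p = 7.58e-05).

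Mmp3 went from 23.0, 20.4, 22.7 and 25.9 CPM to 7.66, 7.29, 11.4 and 20.4 with long knockdown. It fell 1.97-fold (log2 -0.98, SE 0.309, adjusted p = 0.0271), but unevenly: the log2 ratio was -1.58 in P16, -1.49 in P17, -0.99 in P18 and -0.34 in P19, where the knockdown library reached the lowest control. Mmp13 was not called (log2 -0.18, adjusted p = 0.842), at 7.61, 12.2, 21.1 and 43.7 CPM against 20.3, 18.3, 22.5 and 34.2. It was lower in P16, P17 and P18 and higher in P19. Mki67 stood at 31.5 CPM in that P19 knockdown library and at 1.68 to 3.56 in the other 3; its part was not tested. Mmp27, the neighbour of Mmp8 in the cluster, held 56 counts in controls and 11 with knockdown, a ratio of 0.236 (95% interval 0.111 to 0.454; adjusted p = 0.0108).

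Timp1 went from 10.8, 10.7, 9.67 and 9.45 CPM to 8.36, 7.96, 5.82 and 6.79, 1.40-fold lower with no overlap (log2 -0.49, SE 0.133, adjusted p = 0.0103). Adamts5, an aggrecan- and versican-cutting enzyme, went from 161, 152, 159 and 155 CPM to 105, 104, 108 and 137. P19 was the highest knockdown library, still below every control (log2 -0.47, SE 0.117, adjusted p = 0.0059). Adamts12 fell from 2.96 ± 0.518 to 1.42 ± 0.338 CPM (log2 -1.05, adjusted p = 0.00206) and its relative Adamts7 from 30.1 ± 5.97 to 19 ± 2.71 (log2 -0.66, adjusted p = 0.0124). The fall of Mmp14 (330 ± 33.8 to 264 ± 23.4 CPM, log2 -0.32, adjusted p = 0.0153) and Mmp2 (327 ± 6.73 to 277 ± 15.0, log2 -0.24, adjusted p = 0.00344) was small and present in 4 of 4 batches. The remaining reference members did not pass with all 4 batches and no batch term: Timp2 (log2 -0.17), Timp3 (-0.22), Adamts1 (0.26), Adamts2 (-0.31) and Adamts4 (-0.26).

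**Figure D3:**
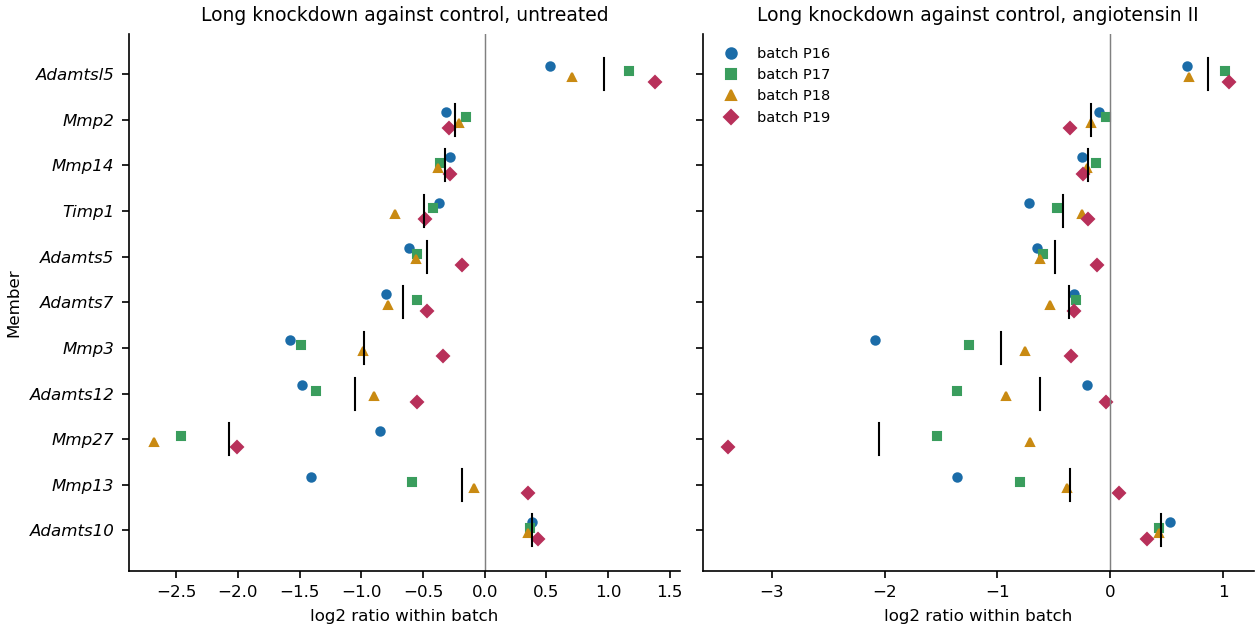
log2 ratio of long knockdown to control within each batch, for the called members other than Timp4 and for Mmp13 and Adamts10, untreated (left) and with angiotensin II (right). Points are batches and vertical lines the fitted value; Mmp3 runs from -1.58 in P16 to -0.34 in P19 untreated, and Mmp13 crosses 0 in P19. Mmp27 has no P16 point on the right, since that knockdown library held 0 counts.

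With batch as a term 18 members passed (4 higher, 14 lower), among 40.6% of all genes, and they included all 10. Added were Adamts10 (log2 0.38) and Adamts1 (0.26) as higher and Timp2, Timp3, Mmp11, Mmp19, Adamts2 and Adamts14 as lower, with log2 fold changes from -0.64 to -0.17. For Adamts10, P19 was the lowest library in both groups, at 127 and 171 CPM against 233 to 256 in the other controls and 303 to 327 in the other knockdowns. Its groups overlapped, and it was higher with knockdown in 4 of 4 batches (adjusted p = 0.375 without and 6.92e-07 with the batch term). Without batch P19 altogether, 20 members passed, again including all 10, among 40% of all genes. Of the reference members this added Timp2 (log2 -0.19, adjusted p = 0.00401), Timp3 (-0.30, 0.000212), Adamts2 (-0.34, 0.000381) and Adamts4 (-0.60, 0.0135). The Mmp3 call was lost without control P19 (adjusted p = 0.0702), without knockdown P16, P17 or P18 (0.0919, 0.0914 and 0.0616) and with no filter on low counts (0.075).

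With angiotensin II present in both arms, long knockdown changed 7 of 30 members (23.3%; 2 higher, 5 lower), near the background of 26.7% (13.4% higher, 13.3% lower). The 7 were Timp4 and Adamtsl5, higher, and Mmp27, Mmp3, Adamts5, Timp1 and Mmp2, lower. Timp4 was listed at 18, 16, 11 and 9 counts against 5, 2, 0 and 0 in controls (ratio 6.87, 95% interval 3.12 to 17.9, adjusted p = 0.0283). Here too it passed the filter on low counts only through knockdown libraries, so its p-value is no independent support. Mmp27 held 12 against 46 counts (ratio 0.232, interval 0.112 to 0.445; adjusted p = 0.0109). Adamtsl5 stood at 23.6, 25.5, 23.6 and 34.4 CPM against 14.7, 12.6, 14.5 and 16.6 (log2 0.87, adjusted p = 0.000247).

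Mmp3 stood at 5.80, 8.96, 12.1 and 20.2 CPM with knockdown and angiotensin II against 24.7, 21.3, 20.5 and 25.8 with angiotensin II alone (log2 -0.97, SE 0.311, adjusted p = 0.0291). P16 again moved most and P19 least, with log2 ratios of -2.09 and -0.35. Adamts5 stood at 95, 108, 110 and 141 CPM against 150, 164, 170 and 152 (log2 -0.49, adjusted p = 0.00434). Timp1 fell from 10.2 ± 1.72 to 7.61 ± 0.798 CPM (log2 -0.42, adjusted p = 0.0242) and Mmp2 from 321 ± 20.9 to 286 ± 12.2 (log2 -0.17, adjusted p = 0.031). The reference members Mmp13 (log2 -0.36), Mmp14 (-0.20), Timp2 (-0.17), Timp3 (-0.25), Adamts1 (0.27) and Adamts4 (-0.18) did not pass. With batch as a term 16 passed (5 higher, 11 lower), among 41.3% of all genes. Added were Adamts1, Adamts6 and Adamts10 as higher and Adamts7, Adamts12, Mmp14, Mmp24, Timp2 and Timp3 as lower. The count fell to 4 without control P19, 3 without knockdown P16 and 4 without knockdown P18, among 21.4%, 20.0% and 20.7% of all genes. In a fit of these 2 groups alone it was 2 (Adamts5 and Adamtsl5, among 24.0% of all genes). That fit tested 28 members, and Timp4 and Mmp27 were not among them. Without batch P19 the count was 17, among 39.9% of all genes. It held 5 of the 7 (not Mmp27, adjusted p = 0.0677, nor Mmp2, 0.1). Among the reference members it added Timp2 (0.00924), Timp3 (3.73e-05) and Mmp14 (0.00754). With no filter on low counts Mmp3 (adjusted p = 0.0864) and Mmp2 (0.148) lost their calls. With 1 library left out, Timp4 lost its call without control P17, P18 or P19 or knockdown P16 or P17 (adjusted p = 0.0681 to 0.0825), Mmp3 without control P16 or P19 or knockdown P16, P17 or P18 (0.0587 to 0.0888), Timp1 without control P16 or P17 or knockdown P16 or P18 (0.0628 to 0.0819) and Mmp2 without control P18 or P19 or knockdown P16, P18 or P19 (0.0539 to 0.116).

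Beside these members, the substrates split under long knockdown in untreated cells: of 12 tested, 4 rose and 4 fell, against 12.3% of all genes higher and 12.8% lower, and 9 of 12 passed with batch as a term, against 40.6%. Col1a2, a chain of type I collagen, fell from 1324 ± 157 to 390 ± 52.5 CPM (log2 -1.76, adjusted p = 3.09e-09), and Col3a1, type III collagen, rose from 30.6 ± 12.4 to 97.1 ± 31.6 (log2 1.67, adjusted p = 0.00624). Eln rose from 0.836 ± 0.259 to 3.9 ± 1.60 CPM (log2 2.24, adjusted p = 0.000361) and Thbs2, a matricellular protein, from 0.941 ± 0.334 to 2.74 ± 0.721 (log2 1.55, adjusted p = 0.00873). Of 9 membrane ADAM genes 1 rose and 5 fell, of 5 plasminogen activation genes 1 rose and 2 fell, and of 11 genes of activation, clearance and other inhibitors 0 rose and 3 fell. The batch term gave 1 higher and 7 lower, 1 and 2, and 0 and 4 in these lists, and 5 and 4 in the substrates. Pcsk6, a convertase that cuts propeptides, fell from 2.75 ± 0.727 to 0.710 ± 0.742 CPM (log2 -1.96, adjusted p = 0.00413). With angiotensin II the same lists gave 4 and 4, 1 and 5, 0 and 2, and 0 and 2, against 13.4% of all genes higher and 13.3% lower. The 4 epithelial markers summed to 74.5 to 103 in length-scaled CPM in untreated controls and 30.9 to 56.0 with knockdown, and the 6 fibroblast markers to 913 to 1055 and 1061 to 1422. Of the epithelial markers Krt18, Epcam and Krt14 stayed under 0.5 CPM in every library of both arms, also with angiotensin II. That epithelial sum is therefore mainly the level of Cdh1. The smooth muscle (364 to 414 and 339 to 492), endothelial (0.610 to 1.56 and 0.830 to 2.02) and leukocyte (22.1 to 31.6 and 26.2 to 33.1) sums overlapped. With angiotensin II in both arms the epithelial sum was 80.7 to 99.9 in controls and 28.9 to 51.9 with knockdown, and the fibroblast (953 to 1129 and 1052 to 1430), smooth muscle (364 to 425 and 372 to 506), endothelial (0.435 to 1.27 and 0.929 to 2.23) and leukocyte (21.5 to 27.6 and 27.4 to 36.5) sums overlapped; their part in the members' changes was not tested.

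Overexpression of total CASC15 changed 3 of 32 members (9.38%), 2 higher and 1 lower, against 1.65% of the 15350 genes tested (1.09% higher, 0.554% lower). Mmp19 and Adamts7 rose and Mmp15 fell. The median log2 fold change was 0.00 over the members and over all genes, but the median size without sign was 0.59 over the members and 0.21 over all genes.

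Mmp19, a metalloproteinase of basement membrane, stood at 11.7, 14 and 12 CPM in the P17 to P19 plasmid controls and at 34.1, 47.5 and 25.9 with overexpression. It rose 2.85-fold with no overlap (log2 1.51, SE 0.205, adjusted p = 0.00749). Mmp15, a membrane-type enzyme, went from 22.7, 29.0 and 17.8 CPM to 9.39, 9.33 and 10.2, 2.40-fold lower (log2 -1.26, SE 0.184, adjusted p = 0.0106). Adamts7 went from 28.6, 30.1 and 26.9 CPM to 49.5, 41.5 and 63.8 (log2 0.86, SE 0.166, adjusted p = 0.0382). A share of the exon bases of Mmp19 (22.3%) is also annotated to Tmem198b on the other strand, and no source used here states that counting used strand.

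Mmp13, Mmp3 and Timp1 differed widely between batches. Mmp13 stood at 3.92, 8.69 and 45.5 CPM in the controls and 20.0, 54.3 and 117 with overexpression, higher in each batch yet overlapping between groups (log2 1.72, SE 0.889, adjusted p = 0.41). Mmp3 did likewise, at 6.58, 11 and 50.4 CPM and 12.4, 33.3 and 74.2 (log2 0.82, adjusted p = 0.676), as did Timp1, at 10.4, 12.7 and 24.0 and 19.8, 31.5 and 39.2 (log2 0.94, adjusted p = 0.215). Mki67 followed the same order of batches, at 9.19, 14.6 and 49.0 CPM in controls and 16.4, 28.3 and 77.9 with overexpression, and its part was not tested. With 1 library left out, the log2 fold change ran from 0.94 to 3.35 for Mmp13 (adjusted p = 0.0454 at the highest, without plasmid control P19), from 0.0078 to 2.19 for Mmp3 and from 0.70 to 1.39 for Timp1 (0.0211 at the highest, without the same library). Timp1 also passed without batch P19 (log2 1.15, adjusted p = 0.026). With no filter on low counts Mmp13 had an adjusted p of 7.89e-19 at the same log2 1.72, a drop whose cause was not tested. Adamts9, which cuts versican, stood at 15.2, 24.7 and 14.2 CPM and 41.7, 56.7 and 29.8 (log2 1.24, adjusted p = 0.116).

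With batch as a term 14 members passed (6 higher, 8 lower), among 17.7% of all genes, and they held all 3. Higher were Mmp13 (log2 2.04, adjusted p = 0.00223), Mmp3 (1.01, adjusted p = 0.0373), Timp1 (0.98, adjusted p = 0.00064) and Adamts9 (1.25, adjusted p = 2.96e-05) with Mmp19 and Adamts7. Lower were Mmp2 (-0.43), Mmp14 (-0.28), Mmp16 (-0.78), Mmp11 (-0.56), Adamts15 (-1.24), Adamtsl3 (-0.63) and Timp4 with Mmp15. For Timp4 this rests on 17, 9 and 0 counts in controls and 1, 0 and 0 with overexpression, so no fold is given. The other reference members did not pass with or without the batch term: Timp3 (log2 0.37), Adamts2 (0.20), Adamts4 (-0.60), Adamts5 (0.06), Adamts1 (-0.66) and Timp2, which stood at 2289 ± 73.8 CPM in controls and 2284 ± 232 with overexpression. Without the batch term the count was 8 without plasmid control P19 (among 5.69% of all genes) and 5 without batch P19 (5.57%). Mmp19 kept its call with each library left out in turn, while Adamts7 lost its call without plasmid control P17 (adjusted p = 0.135) or P18 (0.125), overexpression P17 (0.0859) or P19 (0.0676) or batch P19 (0.0569), and Mmp15 without overexpression P18 (0.0658). In a fit of these 2 groups alone none of the 3 passed (adjusted p = 0.056 for Mmp19, 0.057 for Mmp15 and 0.116 for Adamts7), and with no filter on low counts 13 members passed, among 4.56% of all genes.

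**Figure D4:**
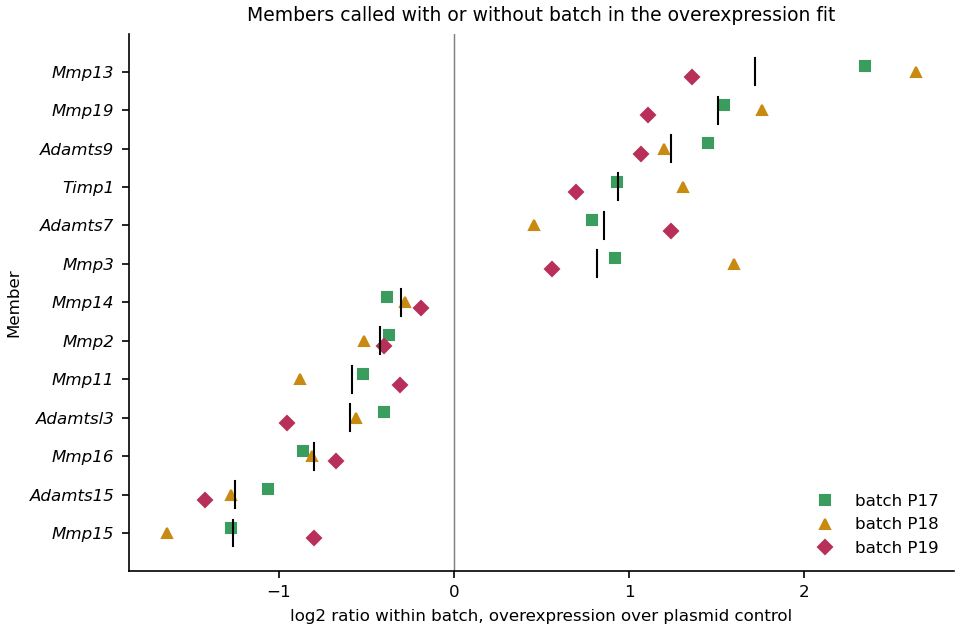
log2 ratio of overexpression to plasmid control within batches P17 to P19, for the members other than Timp4 that passed with or without batch in the fit. Points are batches and vertical lines the fitted value without the batch term; every batch lies on the same side of 0 for each of the 13 members shown.

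Of the related genes, 2 of 9 membrane ADAM genes rose with overexpression and none of the other lists held a call, against 1.65% of all genes. With batch as a term more passed, against 17.7% of all genes: 5 of 9 membrane ADAM genes (3 higher, 2 lower), 3 of 6 plasminogen activation genes (1 and 2), 5 of 13 genes of activation, clearance and other inhibitors (4 and 1) and 4 of 13 substrates (0 and 4, with Col3a1 at log2 -1.71, adjusted p = 0.000532). Adam12, a membrane-anchored metalloproteinase, rose from 3.55 ± 0.396 to 11.3 ± 5.87 CPM (log2 1.67, adjusted p = 0.0483), and Adam17, the shedding enzyme that Timp3 inhibits, from 74.3 ± 6.67 to 134 ± 20.3 (log2 0.85, adjusted p = 0.00995). The 8 leukocyte markers summed to 24.6 to 27.2 in length-scaled CPM in controls and 35.2 to 47.4 with overexpression, with Ptprc, Adgre1, Itgam and Ly6g under 0.5 CPM. The smooth muscle (271 to 783 and 342 to 686), fibroblast (605 to 815 and 663 to 765), endothelial (0.907 to 2.02 and 0.719 to 1.10) and epithelial (34.0 to 54.6 and 49.9 to 112) sums overlapped; their part was not tested.

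In the libraries labelled total knockdown, in which the target was not lower, 0 of 32 members passed by edgeR, against 2.07% of all genes (1.50% higher, 0.560% lower). By DESeq2 1 was called (Adamts1, among 3.92% of all genes). By edgeR 3 members lay under an unadjusted p of 0.05, a cut at which the share of all genes was not counted. Adamts1 stood at 110 and 147 CPM in the P17 and P18 controls and at 58.1 and 43.2 in the labelled knockdown, lower in both batches with no overlap (log2 -1.35, SE 0.326, adjusted p = 0.0793). Mmp13 stood at 1.47 and 3.26 CPM and at 6.62 and 12.2 (log2 2.00, SE 1.21, adjusted p = 0.578). With no filter on low counts Mmp13 had an adjusted p of 2.07e-13 at log2 1.99, a drop whose cause was not tested. Adamts2 stood at 154 and 114 CPM and at 96.3 and 46.8 (log2 -0.91, adjusted p = 0.221). With batch as a term 4 members passed, among 14.4% of all genes: Mmp13 (log2 2.02, adjusted p = 0.015), higher, and Adamts1 (-1.32, adjusted p = 0.0204), Adamts15 (-1.10, adjusted p = 0.0457) and Mmp16 (-0.37, adjusted p = 0.0487), lower. The remaining reference members had log2 fold changes from -0.73 (Adamts4) to 0.55 (Timp1), none past the threshold in either fit. The count was 3 with no filter on low counts (Adamts1, Adamts2 and Mmp13, among 4.44% of all genes), 2 in a fit of the 2 groups alone (Adamts1 and Mmp13, 7.34%), 1 without batch P19 (Adamts1, 6.86%) and 1 without the labelled knockdown P17 (Adamts2, 1.16%), a fit in which the lone knockdown library left is assumed to vary like the other groups.

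Among 41 related genes tested in that comparison, 3 rose and 0 fell, against 1.50% and 0.560% of all genes: Serpinf2, the inhibitor of plasmin, from 0.0741 ± 0.105 to 5.69 ± 0.249 CPM (adjusted p = 0.0148), Spock2, a matrix proteoglycan, from 0.909 ± 0.530 to 7.58 ± 3.21 (adjusted p = 0.0368), and Tll2, a tolloid-like metalloproteinase, from 0.0223 ± 0.0315 to 1.84 ± 0.622 (adjusted p = 0.027). Serpinf2 and Tll2 were near 0 in these controls. Of the groups compared, only the labelled knockdown, where they are high, could carry them past the filter on low counts. The batch term raised the number called to 13 (7 higher, 6 lower), against 14.4% of all genes: 3 of 6 plasminogen activation genes (2 higher, 1 lower), 5 of 13 genes of activation, clearance and other inhibitors (4 and 1), 5 of 13 substrates (1 and 4) and 0 of 9 membrane ADAM genes. Among them were Serpine2, an inhibitor of plasminogen activators (log2 1.05, adjusted p = 0.00517), higher, and Col3a1 (-1.36, 0.00303) and Thbs2 (-1.14, 0.00171), lower. The 8 leukocyte markers summed to 19.3 to 22.3 in length-scaled CPM in controls and 69.8 to 72.7 in the labelled knockdown, with 4 of the 8 under 0.5 CPM in every library. The epithelial (37.9 to 38.0 and 59.8 to 75.3) and endothelial (1.03 to 1.39 and 2.30 to 3.66) sums were higher and the fibroblast sum (528 to 601 and 425 to 476) lower with no overlap, and the smooth muscle sum overlapped (243 to 273 and 255 to 265). Their part was not tested.

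**Figure D5:**
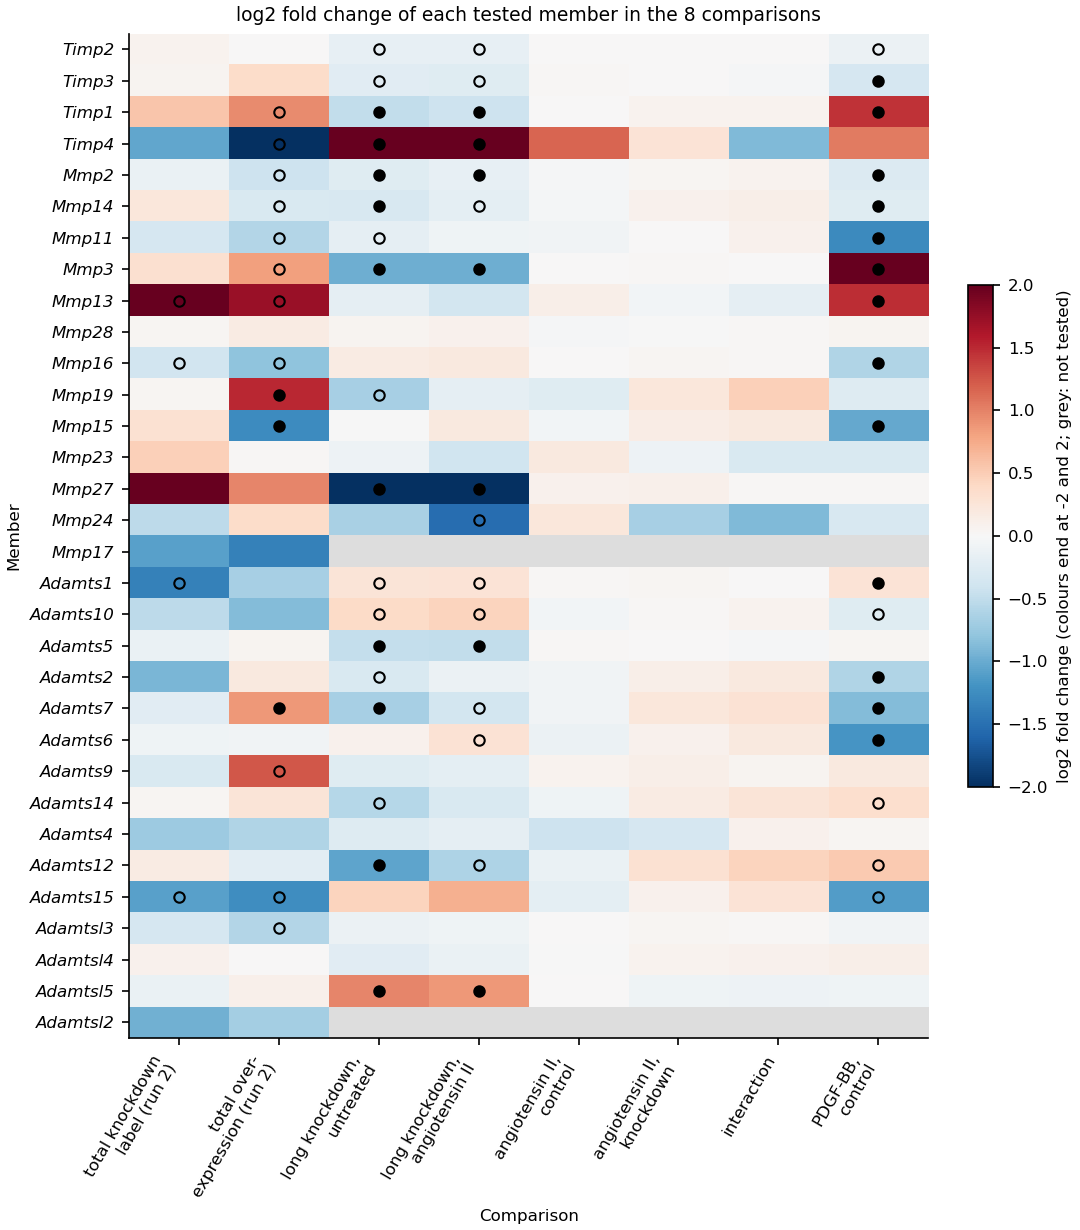
log2 fold change of each member tested (rows) in the 8 comparisons (columns), with colours ending at -2 and 2. Filled circles mark members called at an adjusted p under 0.05, open circles those called only with batch in the fit, and grey cells were not tested; the 3 angiotensin II columns hold no circle.

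Set side by side, Mmp3 was 8.07-fold higher with PDGF-BB and 1.97-fold lower with long knockdown, and Timp1 was 2.71-fold higher and 1.40-fold lower; these comparisons share the untreated controls. In run 2, with its own controls, both were higher with overexpression in each of 3 batches, but neither passed without batch in the fit (adjusted p = 0.676 for Mmp3 and 0.215 for Timp1); with batch they passed (0.0373 and 0.00064). Mmp15 was lower with PDGF-BB (log2 -1.02) and with overexpression (-1.26) and at 12.2 ± 0.766 CPM with long knockdown against 12.2 ± 1.28. Adamts7 was lower with PDGF-BB (log2 -0.86) and long knockdown (-0.66) and higher with overexpression (0.86). Timp2 passed in none of the 8 comparisons with all batches and no batch term, and was called lower in 3 (untreated long knockdown, long knockdown with angiotensin II, and PDGF-BB) with the batch term or without P19. Its group means in run 3 ran from 1777 ± 164 CPM (untreated long knockdown) to 2010 ± 133 (control with angiotensin II).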

How the data were processed

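RNA-seq gene expression was measured in 30 libraries. The authors deposited RSEM expected counts per gene in 1 table for all libraries, made with STAR 2.7.11b and RSEM 1.3.1 per the submitters' processing notes, which name the builds GRCm39 and mm10 without a role. Strand of counting is not given in the sources used here. Counts were rounded to whole numbers. Symbols and exon lengths came from GENCODE M21 (GRCm38), which named 51486 of 78334 identifiers holding 98.7% of counts, and promoter windows from RefSeq (GRCm38.p6).

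The runs were fitted separately with edgeR 4.0.16 in R 4.3.3 (quasi-likelihood test, robust, TMM factors, filterByExpr with a minimum count of 10 and total of 15), with Benjamini-Hochberg adjustment over all 15350 genes tested in run 2 and 15103 in run 3, at a threshold of 0.05. The script was tested on simulated data. CPM were scaled by TMM within a run. Length-scaled CPM are CPM divided by exon length and rescaled to the CPM total over genes with a length. Groups came from the labels, by the code in the library name, since titles number the target differently between replicates. The labels tie replicate number to batch, so same-numbered libraries are paired. Deviations from group means correlated at a mean of 0.23 within batches in run 2 and 0.197 in run 3 (lowest 0.00503 and 0.00908). The means between batches, -0.121 and -0.0606, are no separate evidence of pairing. Subtracting group means makes them negative when those within batches are positive. Given the paired labels, batch as a block was an alternative, beside DESeq2 1.42.0, other filters, fits of the compared groups alone, and leaving out batch P19 or each library.

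Named in each comparison were up to 12 called members of largest log2 fold change and 12 reference members (Timp1, Timp2, Timp3, Mmp2, Mmp3, Mmp9, Mmp13, Mmp14, Adamts1, Adamts2, Adamts4 and Adamts5), of which Mmp9 was below the filter. At most 6 related genes were named, and others were named as additions under the batch block after their values were seen. The members were taken by symbol alone, but the family to describe and the lists were chosen with earlier results of these data known. Protein sequences were not used here.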

Additional observations from a re-analysis of the deposited data

Results flagged for a closer look

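Libraries that stood apart from the other 3 of their group were sought in 105 pairs of a named member and a group of run 3 (4 libraries each), by the gap to the nearest library divided by the whole range (critical value 0.829). The gap passed in 8 pairs, where chance gives about 1 in 20 pairs. Of the 8 libraries 5 were from batch P19, 2 from P16, 1 from P17 and 0 from P18.

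In long knockdown with angiotensin II, P19 was the highest library for Adamts1, at 222 CPM with the next at 181, and the lowest for Mmp11, at 76.9 with the next at 97.3. In untreated long knockdown P19 was highest for Adamts5, at 137 CPM with the next at 108. In the untreated controls P19 was lowest for Mmp14 (280 CPM, next 341) and the sole library with any Timp4 (0.135 CPM, 4 counts). Adamts12 stood apart in the untreated control P17 (3.74 CPM, next 2.74) and in PDGF-BB P16 (4.94 CPM, next 4.06). Timp4 stood apart in PDGF-BB P16 (0.337 CPM, next 0.0509), on 6 counts against 1.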

How the results depend on the processing

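Over the 33 values of called members, 481 alternatives kept the direction, of which 422 kept the call and 59 lost it; none reversed. The batch used as a replicate block moved the count of called members from 0 to 4 for the labelled total knockdown, from 3 to 14 for overexpression, from 10 to 18 for long knockdown and from 7 to 16 for long knockdown with angiotensin II, and every member called without the block was called with it. The share of all genes called moved too, from 2.07% to 14.4%, 1.65% to 17.7%, 25.0% to 40.6% and 26.7% to 41.3%. Without batch P19 the counts were 1, 5, 20 and 17, among 6.86%, 5.57%, 40% and 39.9% of all genes. Fits of the compared groups alone gave 2 for the labelled total knockdown, 0 for overexpression and 2 for long knockdown with angiotensin II, among 7.34%, 0.478% and 24.0%. These fits tested 31, 29 and 28 members in turn. With no filter on low counts the first 2 comparisons gave 3 and 13, among 4.44% and 4.56%, and DESeq2 gave 1 for the labelled total knockdown, among 3.92%. Without the filter the adjusted p of Mmp13 was 2.07e-13 (log2 1.99) and 7.89e-19 (log2 1.72). Both lie far below the main fit at a like fold change. Leaving out 1 library at a time gave 0 to 1 for the labelled total knockdown, 2 to 8 for overexpression and 3 to 10 for long knockdown with angiotensin II, among 0.0247% to 1.16%, 0.561% to 5.69% and 19.8% to 31.9% of all genes. In the labelled total knockdown this leaves 1 library in an arm, which is assumed to vary like the other groups. The other counts stayed within 1.5 times. The cause was not tested.

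Values that changed sign all belonged to members that were not called. With 1 library left out, log2 fold changes in the labelled total knockdown ran from -0.0071 to 0.14 for Timp2, -0.11 to 0.23 for Timp3, -0.41 to 0.07 for Mmp2, -0.011 to 0.58 for Mmp3 and -0.36 to 0.031 for Adamts5. With overexpression Timp2 ran from -0.06 to 0.07 (0.10 without batch P19) and Adamts5 from -0.35 to 0.31. In untreated long knockdown Mmp13 ran from -0.82 to 0.10. With PDGF-BB Adamts4 ran from -0.07 to 0.23 and Adamts5 from -0.033 to 0.12.

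For angiotensin II in control cells the ranges were -0.07 to 0.10 for Timp1 (-0.0029 with no filter, -0.00039 with the replicate block, -0.0049 without batch P19), -0.049 to 0.06 for Timp2, -0.08 to 0.0014 for Mmp2, -0.07 to 0.07 for Mmp3 (-0.0086 with no filter), -0.16 to 0.36 for Mmp13, -0.046 to 0.08 for Adamts1 and -0.016 to 0.049 for Adamts5. In knockdown cells they were -0.016 to 0.15 for Timp1 (-0.012 without batch P19), -0.037 to 0.07 for Timp2, -0.11 to 0.11 for Timp3 (-0.0017 with a mean CPM of at least 1, -0.0018 in the groups alone), -0.38 to 0.43 for Mmp3, -0.69 to 0.57 for Mmp13, -0.05 to 0.12 for Adamts1 and -0.12 to 0.10 for Adamts5 (-0.0015 with a mean CPM of at least 1, -0.0011 with the block, -0.019 without batch P19, -0.002 in the groups alone). For the interaction they were -0.031 to 0.15 for Timp1 (-0.0072 without batch P19), -0.05 to 0.06 for Timp2 (0.015 with no filter, 0.00016 with the block, 0.021 without batch P19, 0.0013 in the groups alone), -0.14 to 0.08 for Timp3, -0.38 to 0.43 for Mmp3, -0.81 to 0.45 for Mmp13, -0.08 to 0.10 for Adamts1 (-0.031 without batch P19), -0.033 to 0.31 for Adamts4 and -0.14 to 0.08 for Adamts5. Depth limits Timp4, Mmp27 and the members below the filter, whose intervals cover counting error only.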
